A study of Mus musculus with 15 samples.

Results

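The 34 genes described here encode the carriers and enzymes that take pyruvate into the mitochondrion, turn it into acetyl-CoA and oxidise it in the citric acid cycle, together with the malate-aspartate shuttle and side entries to the cycle. They were listed by name, and the list was chosen with earlier results of these data known. The listed symbols were matched to the Ensembl identifiers of the deposited expression table, and 34 of 34 were found among its 36653 identifiers. By role they were 2 subunits of the pyruvate carrier, 5 of the pyruvate dehydrogenase complex, 6 kinases and phosphatases that control that complex, 12 cycle enzymes, 6 shuttle genes and 3 side entries. The mice were C57BL/6, wild type and 10 weeks old, and RNA was taken from the ventricle. Poly(A) RNA was sequenced in 15 libraries, 5 per group. Vehicle mice received saline. AngII mice had angiotensin II, a hormone that constricts vessels and drives cardiac hypertrophy, infused from a pump under the skin at 1000 ng/kg/min. AngII plus OA mice had the same infusion and were also given a fatty acid with a single double bond, oleic acid (OA), as 0.3 mL per mouse each day at 160 mg/kg. No group analysed here received oleic acid without angiotensin II. The length of treatment is not given in the sources used here, nor is the sex of the mice or whether a library came from 1 mouse or a pool.

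Pyruvate made by glycolysis enters the mitochondrial matrix through a carrier formed by Mpc1 and Mpc2. The pyruvate dehydrogenase complex converts it to acetyl-CoA, and kinases turn the complex off while phosphatases turn it on again. The cycle oxidises acetyl-CoA to carbon dioxide and passes the electrons to the respiratory chain, on which the adult heart relies for most of its ATP.

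By limma on log2(FPKM + 1), adjusted over all 13121 genes whose mean FPKM was 0.5 or more, 0 of the 34 genes passed an adjusted p under 0.05 in any of the 3 comparisons. FPKM count fragments per kilobase of gene, scaled to library size, and a gene that passed is described as called. Of all genes tested, 1.5% passed between AngII and vehicle, 0% between AngII plus OA and AngII and 0% between AngII plus OA and vehicle. The differences that were measured were small and lay on the same side for most of the genes. Between AngII and vehicle 28 of 34 had a log2 change below 0 (82.4%, against 34.3% of all genes), among them all 12 cycle enzymes, with a median of -0.24. Between AngII plus OA and AngII 29 of 34 were above 0 (85.3%, against 36.6% of all genes), again with all 12 cycle enzymes, at a median of 0.22. Idh2 and Idh3g, subunits of isocitrate dehydrogenases, were 2 of 34 genes (5.88%) with every AngII plus OA library above every AngII library, against 0.229% of all genes higher and 1.27% in either direction. These 2 comparisons share the AngII libraries, so a low AngII library moves them in opposite directions. The median of the 34 was -0.17 and 0.13, but -0.05 and 0.04 without AngII replicate 2, and it turned to 0.01 and -0.04 with limma array weights, which weight that library least (0.155). Of 13 cardiomyocyte markers, 12 were below 0 in the first of these comparisons and 12 above 0 in the second. In tissue RNA, fewer cells of a type and less RNA per cell cannot be told apart.

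Idh2, Idh3g and Suclg1 had the smallest p of the 34 between AngII plus OA and AngII, and their promoters are printed to show the sequence just before these 3 genes. The sequences are from RefSeq on GRCm38.p6, cover 250 bases before the transcript start and read 5′ to 3′ on the strand of the gene. That build differs from the one named for these data, and the coordinates belong to RefSeq alone. Idh2 lies at chr7:80115351-80115600 on the minus strand, Idh3g at chrX:73786898-73787147 on the minus strand and Suclg1 at chr6:73248255-73248504 on the plus strand. Capitals mark matches to the motifs named after the sequences.
Idh2: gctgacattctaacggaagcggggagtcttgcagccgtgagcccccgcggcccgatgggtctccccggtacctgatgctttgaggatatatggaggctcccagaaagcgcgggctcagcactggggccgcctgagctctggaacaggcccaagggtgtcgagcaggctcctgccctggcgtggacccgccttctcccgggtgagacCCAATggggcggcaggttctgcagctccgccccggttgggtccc
Idh3g: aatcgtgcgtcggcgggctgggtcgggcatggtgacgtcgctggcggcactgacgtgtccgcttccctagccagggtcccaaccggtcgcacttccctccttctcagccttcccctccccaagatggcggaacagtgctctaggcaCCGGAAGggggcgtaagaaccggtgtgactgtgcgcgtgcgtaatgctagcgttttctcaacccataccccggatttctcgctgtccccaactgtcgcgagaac
Suclg1: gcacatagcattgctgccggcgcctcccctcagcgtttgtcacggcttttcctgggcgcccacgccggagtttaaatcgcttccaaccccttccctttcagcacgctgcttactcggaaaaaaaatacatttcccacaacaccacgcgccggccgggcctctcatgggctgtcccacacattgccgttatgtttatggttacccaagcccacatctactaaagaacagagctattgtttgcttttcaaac
The motifs searched on both strands were AAGGTCA (core of an oestrogen-related receptor half-site), GCATGCGC (NRF1 core), CCGGAAG (ETS and GABP core), CCAAT (a common promoter box) and TATAAA (the box that many tissue-specific promoters carry). Idh2 had CCAAT 44 bases before the start, and Idh3g had CCGGAAG 104 bases before it. RefSeq promoters, running from 250 bases before to 50 after the start, were found for 31 of the 34 genes. CCAAT was present in 18 of these 31 genes (58.1%), in 37.4% of all 32851 promoters and in 41.1% of the 27025 genes with a promoter. CCGGAAG was present in 4 of the 31 (Dlst, Idh3b, Idh3g and Mpc1), against 9.93% of genes with a promoter (8.86% of all promoters). AAGGTCA was present in Got1 and Ogdh, against 5.38% of these genes (4.72% of promoters). GCATGCGC was present in Ogdh, against 3.05% of genes (2.71% of promoters). TATAAA was present in Got2 only of the 31, against 15.7% of genes (13.6% of promoters). A match describes the letters and is no evidence that a factor binds there.

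The libraries were of similar depth, with 24.5 to 28.3 M fragments behind the FPKM, and the 34 genes rested on 39 reads (the lowest Pdk3 library) to 52778 reads (the highest Cs library). Mitochondrially encoded RNA took 44.6% to 50.0% of the FPKM in vehicle, 34.5% to 48.3% in AngII and 38.6% to 47.0% in AngII plus OA. All 13 cardiomyocyte markers were measured, and their summed level was 29266 to 36079 FPKM in vehicle, 17795 to 33863 in AngII and 33430 to 38272 in AngII plus OA. The lowest sum was that of AngII replicate 2, which also had the highest sums of atrial (3046 FPKM, 5 of 5 markers), adipocyte (302 FPKM, 6 of 6), mesothelial (87.6 FPKM, 5 of 5) and B cell markers (53.3 FPKM, 5 of 5). Of the 13 cardiomyocyte markers, 12 were below 0 between AngII and vehicle (median log2 change -0.12, 0 called). Between AngII plus OA and AngII, 12 of 13 were above 0 (median 0.21, 0 called). Between AngII and vehicle 7 of 7 fibroblast markers (2 called) and 6 of 6 macrophage markers (3 called) were above 0. Their summed levels were 420.1 to 792 FPKM in vehicle, 777 to 1234 in AngII and 559 to 1131 in AngII plus OA for fibroblasts. For macrophages they were 146 to 202, 213 to 360 and 196 to 302 FPKM in the same order. The highest fibroblast sum was that of AngII replicate 2. Between AngII plus OA and AngII, 0 of 7 fibroblast and 1 of 6 macrophage markers were above 0. The part of these cell types in the values of the 34 genes was not tested.

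Levels in the vehicle ventricle were highest per kilobase for Idh2, the NADP-dependent isocitrate dehydrogenase of the matrix (661 ± 84.0 FPKM, mean ± SD, n = 5), and for Mdh1, the malate dehydrogenase of the cytosol (568 ± 126 FPKM). Pdhb, Mdh2, Cs and Ogdh followed at 344 ± 81.5, 324 ± 28.1, 283 ± 45.9 and 218 ± 58.8 FPKM. At the other end were Me2 (2.56 ± 0.458 FPKM), Pdpr (1.97 ± 1.68 FPKM) and Pdk3 (0.985 ± 0.333 FPKM). Of the 33 pairs of neighbours in this order, 32 had vehicle values that overlapped, so the order of neighbours is not fixed. The pair without overlap was Dlst (137 ± 18.0 FPKM) above Fh1 (105 ± 13.5 FPKM). Of the NAD-dependent isocitrate dehydrogenase, Idh3b and Idh3g were at 159 ± 33.2 and 146 ± 13.9 FPKM and the catalytic subunit Idh3a at 90.1 ± 12.8 FPKM. Of the partner subunits of succinyl-CoA ligase, the ADP-specific Sucla2 was at 102 ± 35.5 FPKM and the GDP-specific Suclg2 at 31.3 ± 8.70 FPKM. Among the kinases Pdk2 was at 69.4 ± 9.15 FPKM, Pdk1 at 12.3 ± 3.89 FPKM and Pdk3 lowest.

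**Figure D1:**
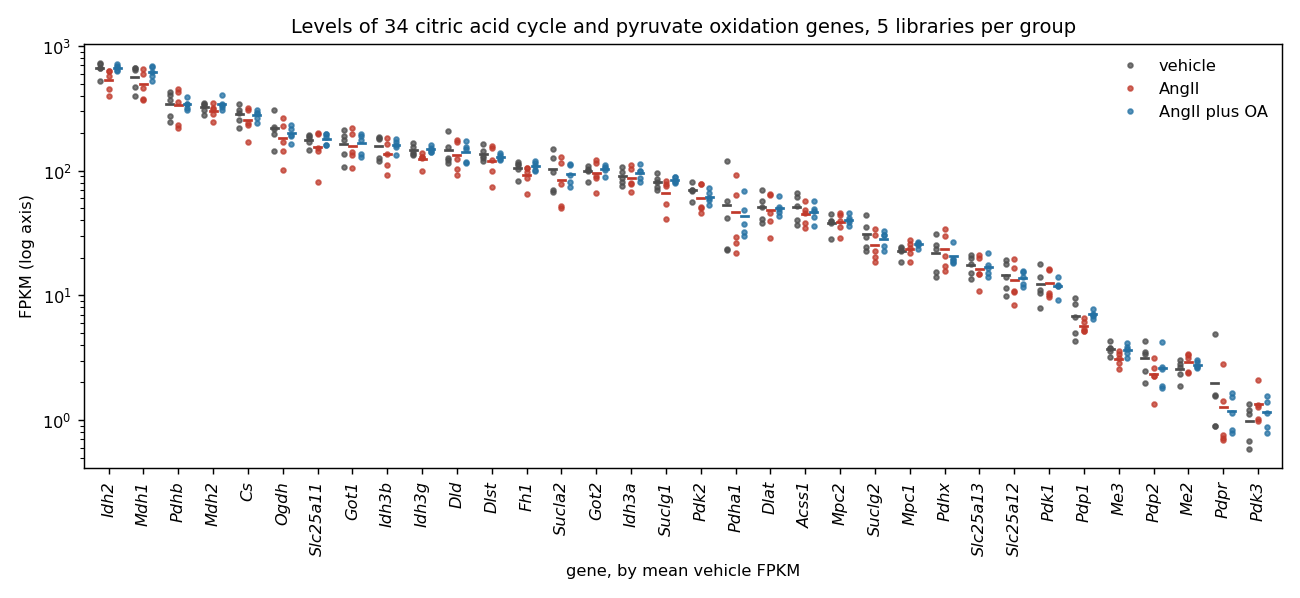
FPKM of each of the 34 genes (log axis) in the 15 libraries, ordered by the vehicle mean. Points are libraries and short bars are group means. Vehicle overlaps both other groups for all 34 genes, from Idh2 (vehicle mean 661 FPKM) down to Pdk3 (0.985 FPKM).

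The genes went up and down together from library to library inside each group. In vehicle, 33 of 34 were above their own group mean in replicate 3 and 30 in replicate 4, but 7 in replicate 2 and 4 in replicate 5, with 24 in replicate 1. Over all tested genes the share above the group mean in those libraries was 58.2%, 50.0%, 51.3%, 44.5% and 40.4%. In AngII, 33 of 34 were above the group mean in replicate 1 and 33 in replicate 3, against 3 in replicate 2, 12 in replicate 4 and 2 in replicate 5. The share of all genes there was 53.5%, 44.4%, 39.8%, 61.6% and 55.7%. In AngII plus OA, 27, 3, 27, 3 and 26 of 34 were above it in replicates 1 to 5, against 57.5%, 42.8%, 39.5%, 69.6% and 39.0% of all genes. The high and low libraries therefore occurred in all 3 groups. The mean deviation of the 34 genes reached 0.32 on the log2 scale in vehicle replicate 4 and 0.38 in AngII replicate 3, and -0.29 in vehicle replicate 5 and -0.36 in AngII replicate 2. AngII replicate 2 held the lowest of the 15 values for 20 of the 34 genes, and vehicle replicate 4 held the highest for 15.

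Some genes went against their library more than once, which was not tested against chance. Pdk3 was above its group mean in AngII replicate 2, where 31 of 34 were below, and was the exception below the mean in AngII replicates 1 and 3. Mpc2, Idh3g, Fh1 and Mdh2 were below their mean in vehicle replicate 4, where the other 30 were above. Their log2 deviations there were -0.40, -0.04, -0.02 and -0.20. Pdha1, the regulated alpha subunit of pyruvate dehydrogenase, had the widest spread inside groups, with an SD of 0.80 on the log2 scale. Of the 500 genes nearest to it in mean level, 98.6% had a smaller SD. Pdpr (0.51) and Sucla2 (0.49) followed. Me3 (0.13), Idh3g (0.14), Me2 (0.16), Mpc1 (0.16) and Mdh2 (0.16) had the narrowest spread. The highest library exceeded the lowest by a median of 1.88-fold over the 34 genes in AngII, 1.66-fold in vehicle and 1.33-fold in AngII plus OA. More than 2-fold was seen for 14, 9 and 3 genes in that order, and the largest were 5.50-fold for Pdpr and 5.14-fold for Pdha1, both in vehicle. Whether the spread differed between groups was not tested. Together the 34 genes made up 0.853% ± 0.165 of all FPKM in vehicle, 0.789% ± 0.214 in AngII and 0.865% ± 0.0641 in AngII plus OA (SD, n = 5 each). With mitochondrially encoded genes left out of the total, the shares were 1.61% ± 0.322, 1.34% ± 0.334 and 1.51% ± 0.173. AngII plus OA was then below vehicle.

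**Figure D2:**
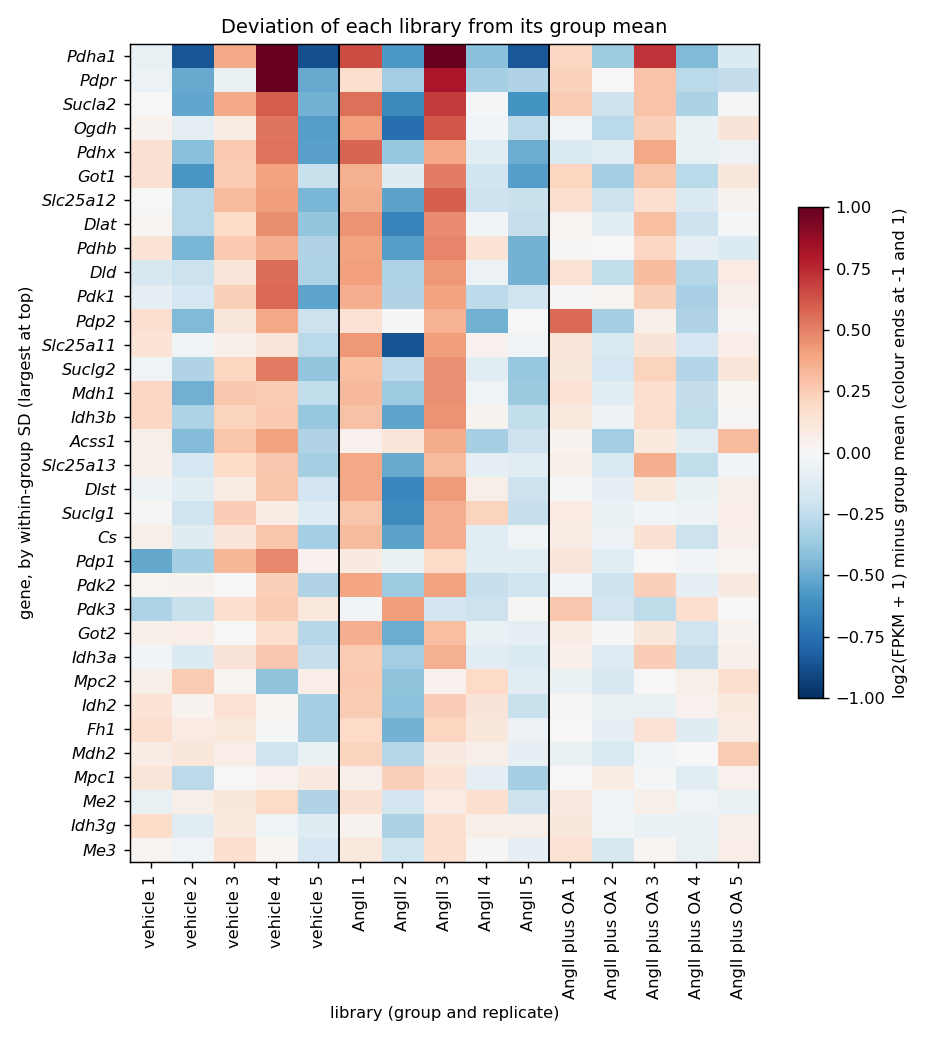
Deviation of each library from its own group mean, in log2(FPKM + 1), for the 34 genes (rows, widest spread at the top) in the 15 libraries (columns, groups divided by lines). Colours end at -1 and 1. Columns such as vehicle 3 and 4 and AngII 1 and 3 are mostly red, and vehicle 5 and AngII 2 and 5 mostly blue. Pdha1 has the strongest colours.

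Genes outside the list, chosen after their values were seen, differed in whether they followed these libraries. Ckm, the creatine kinase of muscle, was at 174, 91.2, 212, 288 and 80.1 FPKM in vehicle, 255, 54.0, 274, 133 and 93.8 FPKM in AngII and 174, 159, 234, 132 and 146 FPKM in AngII plus OA, in replicate order 1 to 5, which is the order used for all values below. Sdha, a subunit of succinate dehydrogenase, was at 169.6, 117, 221, 285 and 123 FPKM in vehicle, 178, 90.5, 229.5, 115 and 89.1 FPKM in AngII and 194, 137, 205, 131 and 174 FPKM in AngII plus OA. Both were high in vehicle replicate 4 and AngII replicate 3 and low in vehicle replicate 5 and AngII replicate 2, and their groups overlapped. Sdhb, the iron-sulfur subunit of the same enzyme, was at 420.4, 479, 353, 282 and 394 FPKM in vehicle, 355, 242, 335, 402 and 368 FPKM in AngII and 397, 396, 379, 405 and 449.6 FPKM in AngII plus OA. Myl2, a ventricular myosin light chain, was at 6798, 7471, 5897, 4683 and 5980.0 FPKM in vehicle, 5186, 2555, 5391, 6194 and 5568 FPKM in AngII and 6259.9, 7777, 5904, 6721 and 6715 FPKM in AngII plus OA. Sdhb and Myl2 were lowest in AngII replicate 2, but in vehicle they were highest in replicate 2 and lowest in replicate 4, and their groups overlapped. The summed level of the 13 cardiomyocyte markers in vehicle was 36079, 33648, 32931, 32006 and 29266 FPKM, with replicate 4 below replicate 2. Single markers among the 13 did not all run that way. Pln was at 1542, 1131, 1890, 2327 and 1173 FPKM in vehicle and 1580, 737, 1911, 982 and 969 FPKM in AngII. Atp2a2 was at 871, 565, 1043, 1399 and 734 FPKM in vehicle and 909, 594, 1092, 585 and 456 FPKM in AngII. Unlike Myl2, both were highest in vehicle replicate 4 and, within AngII, in replicate 3. The fast skeletal myosins Myh1, Myh2 and Myh4 stayed at or under 0.0362 FPKM in every library. The part of muscle content or RNA quality in this pattern was not tested.

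Both subunits of the pyruvate carrier had changes near 0 between AngII and vehicle. Mpc1 (ENSMUSG00000023861) was at 24.5, 18.5, 22.5, 23.2 and 23.9 FPKM in vehicle, 24.1, 27.7, 25.7, 21.9 and 18.3 FPKM in AngII and 25.8, 27.0, 25.5, 23.7 and 26.4 FPKM in AngII plus OA. Mpc2 (ENSMUSG00000026568) was at 39.2, 45.1, 38.3, 28.2 and 39.4 FPKM in vehicle, 46.1, 28.7, 39.4, 44.2 and 35.4 FPKM in AngII and 38.5, 36.1, 40.5, 42.0 and 45.6 FPKM in AngII plus OA. For Mpc1 the low values were vehicle replicate 2 and AngII replicate 5, for Mpc2 vehicle replicate 4 and AngII replicate 2, and all groups overlapped. The log2 change was 0.06 (95% interval -0.18 to 0.29) for Mpc1 and 0.02 (-0.28 to 0.32) for Mpc2. Between AngII plus OA and vehicle Mpc1 had 0.19, the highest change of the 34 in that comparison (limma adjusted p = 0.99999).

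In the pyruvate dehydrogenase complex, 4 of 5 subunits had a change below 0 between AngII and vehicle (median -0.12) and 4 of 5 one above 0 between AngII plus OA and AngII (median 0.07). Pdha1 (ENSMUSG00000031299), whose protein carries the sites that the kinases phosphorylate, was at 41.4, 23.6, 57.0, 119 and 23.2 FPKM in vehicle, 63.2, 26.4, 92.3, 29.6 and 21.7 FPKM in AngII and 48.0, 32.1, 68.9, 30.2 and 37.6 FPKM in AngII plus OA. The highest libraries were vehicle 4, AngII 3 and AngII plus OA 3, with 57.0, 63.2 and 48.0 FPKM the next highest in each group. The groups overlapped throughout. Its log2 change was -0.12 (SE 0.45) between AngII and vehicle. The 95% interval, -1.08 to 0.83, was the widest of the 34, and a 2-fold lower level lay inside it. Dlat (ENSMUSG00000000168), the acetyltransferase core, was at 51.1, 41.3, 57.4, 70.0 and 38.2 FPKM in vehicle, 63.7, 28.8, 64.6, 45.5 and 39.2 FPKM in AngII and 51.1, 46.5, 62.1, 43.4 and 49.6 FPKM in AngII plus OA. Its lowest value was in AngII replicate 2 and its highest in vehicle replicate 4. Pdhb, the beta subunit that pairs with Pdha1, averaged 344 ± 81.5 FPKM in vehicle, 338 ± 108 in AngII and 341 ± 32.6 in AngII plus OA. Dld, the dehydrogenase subunit shared with the 2-oxoglutarate complex, averaged 145 ± 38.7 FPKM in vehicle, 133 ± 38.0 in AngII and 142 ± 25.3 in AngII plus OA. Pdhx, which tethers Dld to the complex, averaged 21.8 ± 7.04 FPKM in vehicle, 23.5 ± 8.08 in AngII and 20.5 ± 3.57 in AngII plus OA, and its log2 change between AngII and vehicle was 0.09 (SE 0.23), on the other side from its partners.

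The kinases and phosphatases of the complex lay on both sides of 0, with 4 of 6 below it between AngII and vehicle and 3 of 6 above it between AngII plus OA and AngII. Pdk1 (ENSMUSG00000006494) was at 11.0, 10.4, 14.1, 18.0 and 7.89 FPKM in vehicle, 15.9, 9.68, 16.4, 10.0 and 10.5 FPKM in AngII and 11.8, 12.0, 14.0, 9.15 and 12.2 FPKM in AngII plus OA. Pdk2 (ENSMUSG00000038967), the most abundant of these kinases in the list, was at 70.2, 70.5, 69.1, 81.5 and 55.7 FPKM in vehicle, 77.6, 45.5, 78.3, 50.0 and 51.3 FPKM in AngII and 60.5, 53.2, 72.9, 57.9 and 65.7 FPKM in AngII plus OA. Pdk3 (ENSMUSG00000035232) was at 0.584, 0.684, 1.21, 1.34 and 1.11 FPKM in vehicle, 1.27, 2.09, 1.02, 0.989 and 1.33 FPKM in AngII and 1.57, 0.875, 0.788, 1.40 and 1.14 FPKM in AngII plus OA. Pdk1 and Pdk2 were highest in vehicle replicate 4, Pdk3 was highest in AngII replicate 2, and for each of them the 3 groups overlapped. Pdk3 had the highest log2 change of the 34 between AngII and vehicle, 0.24 (SE 0.15, limma adjusted p = 0.449), on 39 to 132 reads per library. Pdk2 had -0.22 (SE 0.16) and Pdk1 0.04 (SE 0.20).

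Pdp1 and Pdp2 encode the catalytic subunits of the phosphatase that turns the complex on, and Pdpr its regulatory subunit. Pdp1 (ENSMUSG00000049225) was at 4.27, 4.98, 8.46, 9.49 and 6.74 FPKM in vehicle, 6.11, 5.37, 6.64, 5.21 and 5.20 FPKM in AngII and 7.72, 6.41, 7.01, 6.86 and 7.11 FPKM in AngII plus OA. Pdp2 (ENSMUSG00000048371) was at 3.50, 1.97, 3.36, 4.29 and 2.49 FPKM in vehicle, 2.61, 2.25, 3.17, 1.35 and 2.27 FPKM in AngII and 4.20, 1.79, 2.64, 1.87 and 2.58 FPKM in AngII plus OA. Pdpr (ENSMUSG00000033624) was at 1.58, 0.891, 1.56, 4.90 and 0.898 FPKM in vehicle, 1.43, 0.695, 2.81, 0.715 and 0.755 FPKM in AngII and 1.53, 1.15, 1.64, 0.787 and 0.830 FPKM in AngII plus OA. Vehicle held both the lowest and the highest Pdp1 library, while the Pdpr values of vehicle replicate 4 and AngII replicate 3 stood above all others. Groups overlapped for all 3 genes. Between AngII and vehicle Pdp1 had a log2 change of -0.17, Pdp2 of -0.30 and Pdpr of -0.31, with SE of 0.16, 0.19 and 0.29. AngII plus OA against AngII gave 0.26, 0.11 and 0.00. Pdpr had the lowest change of the 34 between AngII plus OA and vehicle, -0.32 (SE 0.29).

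The cycle enzymes began with citrate synthase. Cs (ENSMUSG00000005683), which joins acetyl-CoA to oxaloacetate, was at 292, 257, 306, 341 and 221 FPKM in vehicle, 309, 171, 319.8, 231 and 241 FPKM in AngII and 293, 267, 309, 240.0 and 289 FPKM in AngII plus OA. AngII replicate 2 was lowest and vehicle replicate 4 highest, and the groups overlapped. The log2 change of Cs was -0.17 (95% interval -0.52 to 0.18) between AngII and vehicle and 0.16 (-0.19 to 0.51) between AngII plus OA and AngII.

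Isocitrate dehydrogenases held the 2 genes of the list whose AngII plus OA and AngII values did not overlap. Idh2 (ENSMUSG00000030541) makes NADPH in the matrix and was at 723, 671, 727, 665 and 520.1 FPKM in vehicle, 631, 399, 626, 579.7 and 454 FPKM in AngII and 675, 636, 635, 692 and 715 FPKM in AngII plus OA. Every AngII plus OA library was above every AngII library, by a narrow margin (lowest 635, highest 631 FPKM), while vehicle overlapped both. Its log2 change was -0.31 between AngII and vehicle (SE 0.14, limma adjusted p = 0.280). Between AngII plus OA and AngII it was 0.34 (SE 0.14, limma adjusted p = 0.737). Idh3g (ENSMUSG00000002010), a regulatory subunit of the NAD-dependent enzyme, was at 165, 135, 156, 141 and 134 FPKM in vehicle, 126, 98.6, 138, 128 and 128 FPKM in AngII and 160.2, 146, 142, 142 and 153 FPKM in AngII plus OA. Here too all AngII plus OA values (142 or more) exceeded all AngII values (138 or less), and vehicle overlapped both. The change was -0.25 (SE 0.11, limma adjusted p = 0.254) and then 0.27 (SE 0.11, limma adjusted p = 0.737). Idh3a (ENSMUSG00000032279), the catalytic subunit of the same enzyme, was at 87.8, 81.3, 97.8, 108 and 75.9 FPKM in vehicle, 103, 67.6, 111, 79.8 and 78.3 FPKM in AngII and 99.0, 87.3, 113, 81.2 and 99.0 FPKM in AngII plus OA. Its groups overlapped, with changes of -0.05 and 0.14. The other regulatory subunit, Idh3b, averaged 159 ± 33.2 FPKM in vehicle, 137 ± 36.4 in AngII and 160.2 ± 17.4 in AngII plus OA. Without AngII replicate 2, the changes between AngII plus OA and AngII were 0.24 for Idh2 and 0.19 for Idh3g.

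Suclg1, of succinyl-CoA ligase, had the largest measured change of the 34 in both of these comparisons. Ogdh (ENSMUSG00000020456), the first subunit of the 2-oxoglutarate complex, was at 218, 198, 223, 308 and 145 FPKM in vehicle, 229.5, 102, 266, 169 and 144 FPKM in AngII and 193, 165, 235, 189.7 and 217 FPKM in AngII plus OA. Suclg1 (ENSMUSG00000052738), the alpha subunit of both succinyl-CoA ligases, was at 81.6, 70.3, 96.4, 85.4 and 74.1 FPKM in vehicle, 77.7, 40.7, 82.4, 74.8 and 54.3 FPKM in AngII and 88.9, 80.2, 82.3, 81.1 and 88.2 FPKM in AngII plus OA. AngII replicate 2 was lowest for both genes, and the highest Suclg1 value in AngII (82.4 FPKM, replicate 3) lay among those of AngII plus OA. Suclg1 had the lowest log2 change of the 34 between AngII and vehicle, -0.34 (SE 0.17, limma adjusted p = 0.319), and the highest between AngII plus OA and AngII, 0.39 (SE 0.17, limma adjusted p = 0.737). Without AngII replicate 2 these were -0.18 and 0.23. Suclg2 (ENSMUSG00000061838) was at 29.6, 24.4, 35.4, 44.1 and 22.8 FPKM in vehicle, 30.3, 20.2, 34.03, 22.6 and 18.6 FPKM in AngII and 30.4, 24.9, 32.9, 22.8 and 30.6 FPKM in AngII plus OA. Sucla2 (ENSMUSG00000022110) was at 97.9, 67.9, 127, 149 and 70.2 FPKM in vehicle, 116, 49.9, 128, 78.0 and 51.7 FPKM in AngII and 111, 80.5, 114, 74.6 and 91.7 FPKM in AngII plus OA. Both beta subunits were highest in vehicle replicate 4 and low in AngII replicates 2 and 5, with overlapping groups. Their changes between AngII and vehicle were -0.30 (SE 0.19) and -0.31 (SE 0.28). Ogdh had -0.30 (SE 0.24), and Dlst, the succinyltransferase core of its complex, averaged 137 ± 18.0 FPKM in vehicle, 120.4 ± 34.9 in AngII and 129.7 ± 7.46 in AngII plus OA.

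The last steps of the cycle are run by fumarase and malate dehydrogenase. Fh1, fumarase, averaged 105 ± 13.5 FPKM in vehicle, 92.3 ± 16.8 in AngII and 109 ± 8.58 in AngII plus OA. Mdh2 (ENSMUSG00000019179), which remakes oxaloacetate, was at 340.4, 350.2, 338, 282 and 309 FPKM in vehicle, 351, 246, 320.4, 314 and 284 FPKM in AngII and 325, 307, 336, 342 and 407 FPKM in AngII plus OA. It was lowest in AngII replicate 2 and highest in AngII plus OA replicate 5, and its groups overlapped. The log2 changes between AngII and vehicle were -0.20 (SE 0.14) for Fh1 and -0.10 (SE 0.12) for Mdh2. AngII plus OA against AngII gave 0.26 and 0.18.

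**Figure D3:**
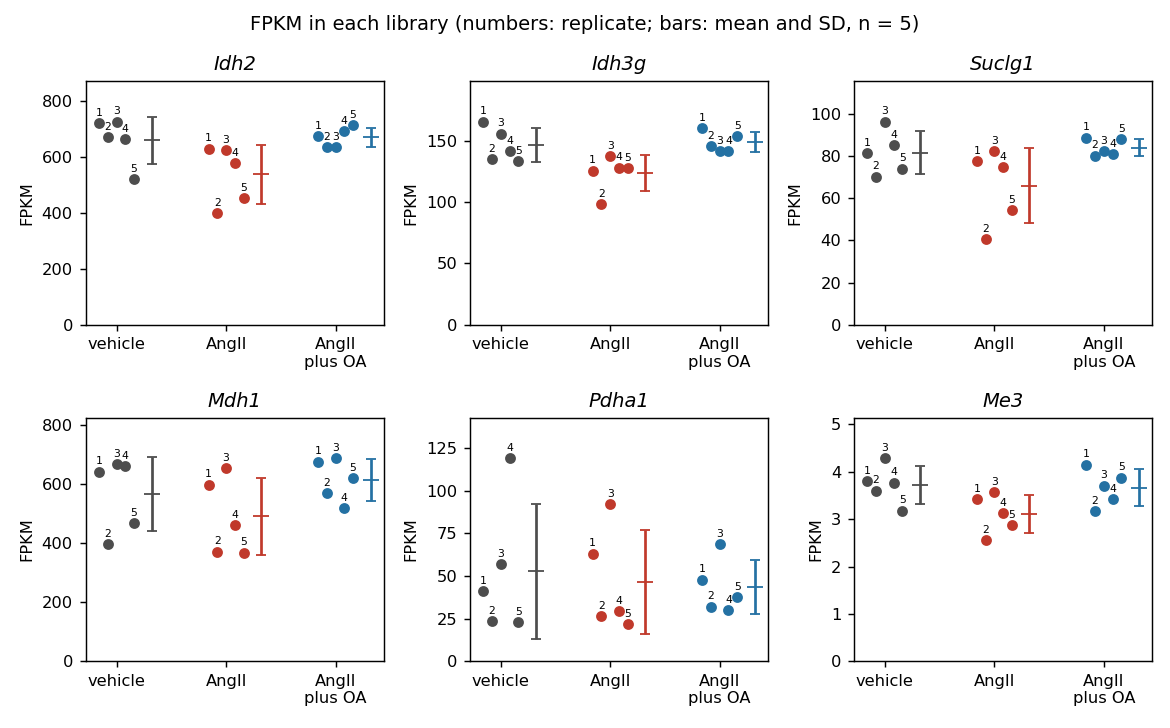
FPKM of Idh2, Idh3g, Suclg1, Mdh1, Pdha1 and Me3 in each library (numbers are replicates), with the mean and SD of each group (n = 5). For Idh2 and Idh3g every AngII plus OA point is above every AngII point. Pdha1 spreads from 21.7 to 119 FPKM.

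The malate-aspartate shuttle carries reducing equivalents from cytosolic NADH into the matrix. All 6 of its genes had a change below 0 between AngII and vehicle (median -0.13) and above 0 between AngII plus OA and AngII (median 0.12). Mdh1 (ENSMUSG00000020321) was at 643, 398, 669.9, 662 and 468 FPKM in vehicle, 599.5, 373, 656, 463 and 369 FPKM in AngII and 677, 570.3, 689, 520.1 and 622 FPKM in AngII plus OA. Low values were AngII replicates 2 and 5 and vehicle replicate 2, and the groups overlapped. Its change between AngII plus OA and AngII, 0.36 (SE 0.19, limma adjusted p = 0.737), was the next largest after Suclg1. Got1 (ENSMUSG00000025190), the cytosolic aspartate aminotransferase, was at 177, 106, 190.5, 212 and 137 FPKM in vehicle, 197, 141, 219, 134 and 105 FPKM in AngII and 190.1, 129, 198, 136 and 177 FPKM in AngII plus OA. Its changes were -0.06 and 0.09 (SE 0.22), and Got2, the mitochondrial form, averaged 98.7 ± 11.0 FPKM in vehicle, 96.2 ± 22.4 in AngII and 103 ± 8.40 in AngII plus OA. Slc25a12 (ENSMUSG00000027010), the aspartate-glutamate carrier aralar, was at 14.1, 11.5, 17.8, 19.2 and 9.96 FPKM in vehicle, 16.7, 8.43, 19.7, 10.8 and 10.7 FPKM in AngII and 15.5, 11.7, 15.5, 12.3 and 14.1 FPKM in AngII plus OA. Slc25a13 (ENSMUSG00000015112), the related carrier citrin, was at 18.0, 15.2, 19.8, 21.1 and 13.5 FPKM in vehicle, 21.1, 10.9, 20.0, 14.9 and 14.7 FPKM in AngII and 17.5, 15.0, 21.8, 13.9 and 16.4 FPKM in AngII plus OA. AngII replicate 2 was lowest for both carriers, and all groups overlapped. The oxoglutarate carrier Slc25a11 averaged 177 ± 19.4 FPKM in vehicle, 156 ± 48.8 in AngII and 180.4 ± 18.1 in AngII plus OA, with a change of -0.24 (SE 0.20) between AngII and vehicle and 0.27 between AngII plus OA and AngII.

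Side entries to the cycle differed among themselves. Me3 (ENSMUSG00000030621), a mitochondrial NADP-dependent malic enzyme that turns malate into pyruvate, was at 3.80, 3.60, 4.28, 3.77 and 3.18 FPKM in vehicle, 3.41, 2.56, 3.57, 3.13 and 2.87 FPKM in AngII and 4.15, 3.17, 3.71, 3.43 and 3.87 FPKM in AngII plus OA. AngII replicate 2 was lowest and vehicle replicate 3 highest, and the groups overlapped. Its log2 change was -0.20 (SE 0.09, limma adjusted p = 0.291) between AngII and vehicle and 0.18 between AngII plus OA and AngII. Me2, the NAD-dependent mitochondrial malic enzyme, averaged 2.56 ± 0.458 FPKM in vehicle, 2.93 ± 0.487 in AngII and 2.78 ± 0.180 in AngII plus OA, with changes of 0.15 (SE 0.11) and -0.05. Acss1 (ENSMUSG00000027452), which makes acetyl-CoA from acetate in the matrix, was at 52.4, 36.9, 61.0, 66.7 and 40.6 FPKM in vehicle, 45.4, 48.1, 57.3, 34.9 and 38.1 FPKM in AngII and 47.1, 36.0, 49.3, 42.3 and 57.4 FPKM in AngII plus OA. It was lowest in AngII replicate 4 and highest in vehicle replicate 4, and its changes were -0.18 and 0.06 (SE 0.18).

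The comparison of AngII with vehicle asks what angiotensin II altered. Over the 34 genes the log2 changes ran from -0.34 (Suclg1) to 0.24 (Pdk3) with a median of -0.17, against a median of 0.07 over all genes tested, and limma adjusted p ran from 0.254 to 0.953. A change below -0.2 was found for 14 of 34 (41.2%) and for 9.74% of all genes. At an unadjusted p under 0.05 there were 3 of 34, Idh2, Idh3g and Me3, all lower, against 16.6% of all genes in either direction and 3.29% lower. In 0 of 34 did AngII and vehicle values fail to overlap, against 3.8% of all genes. All genes called were 166 higher and 31 lower. The split was 69 and 40 after quantile normalization, 103 and 57 after shifting libraries to a common median, and 77 and 37 once mitochondrially encoded genes were left out of the FPKM total. Under these 3 scalings the median of the 34 was -0.30, -0.26 and -0.26. With limma array weights 16 of 34 were below 0, and without AngII replicate 2 it was 23 of 34. By 95% interval, a change of more than 1 on the log2 scale in either direction lay outside the interval for 33 of 34 genes, the exception being Pdha1.

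The comparison of AngII plus OA with AngII asks what differed with oleic acid under angiotensin II. The log2 changes ran from -0.14 (Pdhx) to 0.39 (Suclg1) with a median of 0.13, against -0.05 over all genes, and limma adjusted p ran from 0.737 to 0.998. A change above 0.2 was found for 10 of 34 (29.4%) and for 7.63% of all genes. At an unadjusted p under 0.05 there were 3 of 34, Idh2, Idh3g and Suclg1, all higher, against 6.6% of all genes and 1.35% higher. With array weights 15 of 34 were above 0, and without AngII replicate 2 it was 20. Under the other scalings the median was 0.19 (quantile), 0.19 (shifted medians) and 0.12 (rescaled).

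AngII plus OA was also set against vehicle. The changes lay on both sides, 17 above 0 and 17 below (58.3% of all genes were above), from -0.32 (Pdpr) to 0.19 (Mpc1), with a median of 0.01 against 0.02 over all genes. At an unadjusted p under 0.05 there were 0 of 34, against 3.36% of all genes, and 0 of 34 had groups that did not overlap, against 0.838%. The intervals lay within 1 on the log2 scale in 33 of 34 genes, again all but Pdha1 (-1.03 to 0.89). Quantile normalization gave a median of -0.09, and leaving mitochondrially encoded genes out of the FPKM total also gave -0.09, so its sign was not fixed.

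**Figure D4:**
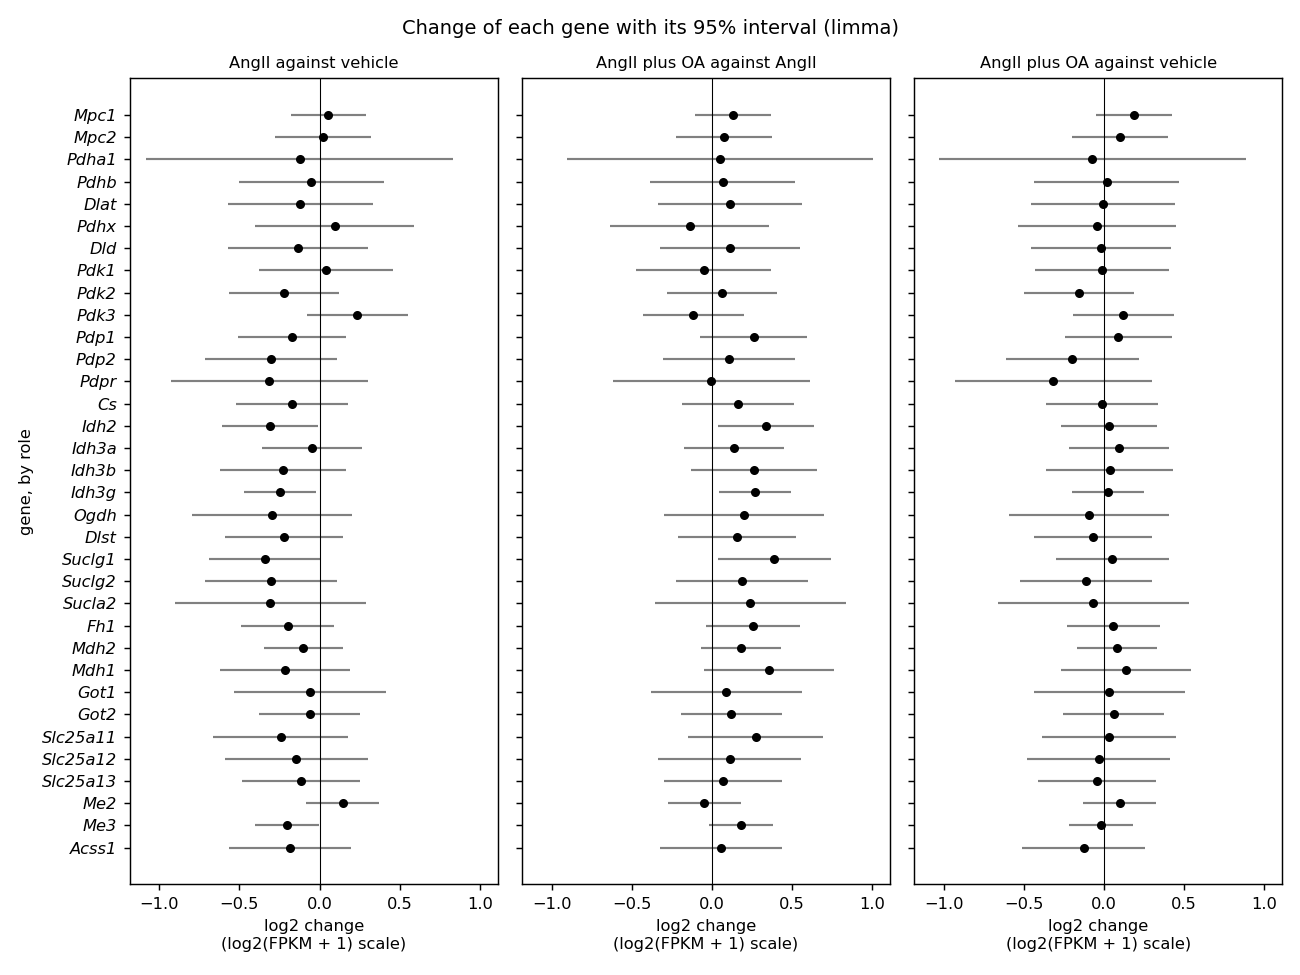
Log2 change of each of the 34 genes on the log2(FPKM + 1) scale, with its 95% interval from limma, in the 3 comparisons (genes ordered by role). Most points are left of 0 in AngII against vehicle (28 of 34) and right of it in AngII plus OA against AngII (29 of 34), and all but 3 intervals cross 0 in each of those panels.

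Ratios of 2 genes in the same library do not depend on how the library was scaled. Of 15 such ratios in 3 comparisons, 0 of 45 passed an exact permutation test (2-sided) after Benjamini-Hochberg adjustment. The smallest p that 5 against 5 libraries allow is 0.00794, and over 45 tests a ratio could not pass alone even at that p. The count of 0 of 45 therefore does not show that the ratios were unchanged. The ratio of Me2 to Me3 reached the smallest possible p between AngII and vehicle. It was 0.620, 0.742, 0.658, 0.811 and 0.589 in vehicle, 0.975, 0.950, 0.875, 1.08 and 0.829 in AngII and 0.726, 0.850, 0.792, 0.779 and 0.672 in AngII plus OA. All AngII ratios were above all vehicle ratios, and AngII plus OA overlapped both. This was the single ratio of the 15 without overlap between AngII and vehicle (6.67%). The mean log2 ratio differed by 0.47 between AngII and vehicle (exact permutation p = 0.00794, adjusted p = 0.357) and by -0.30 from AngII to AngII plus OA (exact permutation p = 0.0159, adjusted p = 0.357). The ratios came from the deposited FPKM. The GENCODE M21 exon length, used only to recover reads, did not give whole reads for Me2. The length behind its FPKM is therefore not known, and the level of the ratio is uncertain, though not its difference between groups.

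The other 14 ratios had overlapping groups in this comparison. Idh2 to Idh3a was 7.39 ± 0.904 in vehicle, 6.15 ± 0.646 in AngII and 7.09 ± 1.05 in AngII plus OA (SD, n = 5 each). AngII differed from vehicle by -0.26 on the log2 scale (exact permutation p = 0.0397, adjusted p = 0.595). Suclg2 to Sucla2, which compares the GDP- and ADP-specific ligases, was 0.312 ± 0.0312, 0.316 ± 0.0632 and 0.302 ± 0.0230 in the same order, with a log2 difference of 0.00 between AngII and vehicle. Pdha1 to Pdhb was 0.142 ± 0.0778, 0.129 ± 0.0481 and 0.125 ± 0.0340. It ranged from 0.0832 to 0.276 over the 15 libraries. On the log2 scale the ratio had an SD of 0.67 in vehicle, 0.52 in AngII and 0.38 in AngII plus OA. The SD inside groups was 0.80 for Pdha1 and 0.36 for Pdhb on that scale. Pdk1 to Pdk2 was 0.174 ± 0.0360, 0.206 ± 0.00481 and 0.191 ± 0.0239.

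**Figure D5:**
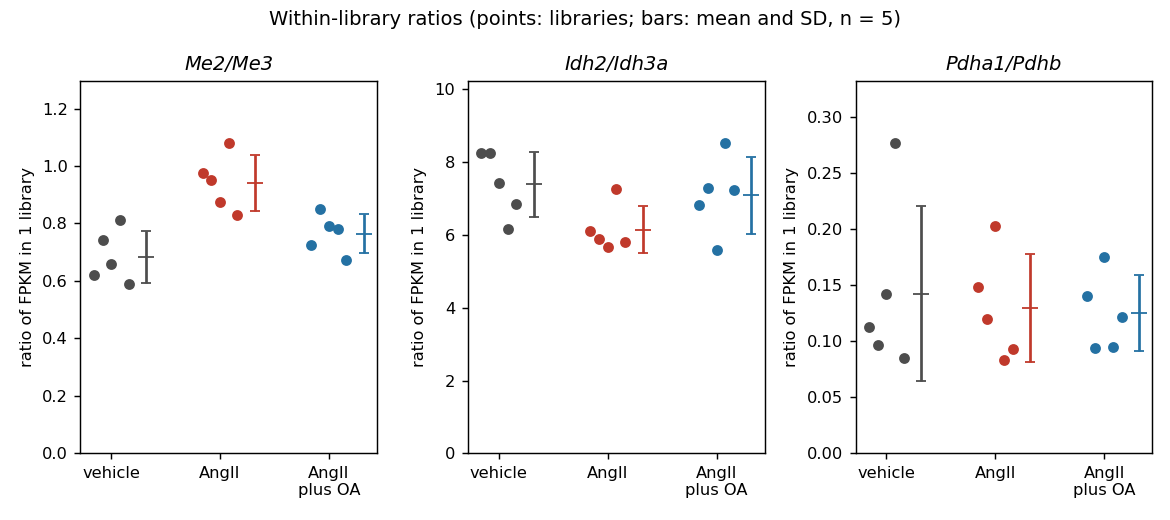
Within-library ratios of FPKM for Me2 to Me3, Idh2 to Idh3a and Pdha1 to Pdhb. Points are libraries and bars are the mean and SD (n = 5). The lowest Me2 to Me3 ratio in AngII (0.829) is above the highest in vehicle (0.811).

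A further 43 genes of the same pathway (among them succinate dehydrogenase and its assembly factors, cytosolic isoforms, lactate dehydrogenases, anaplerotic enzymes, carriers and transcriptional regulators) were all tested. Between AngII and vehicle 0 rose and 1 fell, against 0.236% of all genes called lower. It was Ppargc1b, which encodes PGC-1 beta, a coactivator of mitochondrial genes. Ppargc1b was at 1.48, 2.07, 2.22, 2.08 and 1.999 FPKM in vehicle, 0.787, 0.733, 1.68, 1.10 and 0.961 FPKM in AngII and 1.16, 1.45, 1.37, 1.27 and 1.62 FPKM in AngII plus OA. AngII values were the lowest in 4 of 5 libraries, with replicate 3 inside the vehicle range. It fell by 0.55 on the log2 scale (SE 0.12, limma adjusted p = 0.0335). The call was lost with no filter on low values (limma adjusted p = 0.0765) and with only the 10 libraries compared (0.113). It was also lost without vehicle replicate 2 (0.0707), 3 (0.0661), 4 (0.0770) or 5 (0.0826) or AngII replicate 1 (0.0817), 4 (0.0635) or 5 (0.0841). Pdk4, the kinase induced by fasting and fatty acids, was at 141, 20.7, 162, 71.3 and 19.0 FPKM in vehicle, 245, 173, 158, 59.9 and 152 FPKM in AngII and 119, 75.2, 89.8, 64.2 and 31.5 FPKM in AngII plus OA. Vehicle replicates 2 and 5 were lowest and AngII replicate 1 highest, the groups overlapped, and the log2 change was 1.29 (SE 0.57, limma adjusted p = 0.271). Between AngII plus OA and AngII it was -1.03 (SE 0.57, limma adjusted p = 0.747). Sdha had -0.40 (SE 0.29) between AngII and vehicle. The 43 genes were 20 above and 23 below 0 in that comparison, with a median of -0.04, and 25 above and 18 below 0 between AngII plus OA and AngII, with a median of 0.05. In that comparison and between AngII plus OA and vehicle 0 of 43 were called.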

How the data were processed

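Ventricular RNA was measured by RNA sequencing in 15 libraries, in vehicle, AngII and AngII plus OA groups of 5 libraries, grouped by sample title. The deposited values are FPKM, computed by the authors. Reads were aligned with HISAT2 2.0.4 to a build named mm8, per the submitters' processing notes. The read counter is not given in the sources used here, nor are its annotation and strand setting, the FPKM program or how reads shared with near-identical copies were handled. Symbols and exon lengths came from GENCODE M21, made on another build. Whole reads were recovered within a tolerance of 0.02 for 89.8% to 90.9% of values from under 100 reads, which gave the depth.

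A single fit of limma 3.58.1 (R 4.3.3) to the log2(FPKM + 1) values of all 15 libraries had group as its term and allowed the variance a trend with level. It covered 13121 genes whose mean FPKM reached 0.5, among them the 34 listed genes. Tests were 2-sided, with Benjamini-Hochberg adjustment over all genes. A fold change on this scale understates that of low genes, and p-values measure the spread between these libraries. Ratios were tested by exact permutation, adjusted over 45 tests. The limma step was checked on simulated data.

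Values in every library are given for the genes without overlap in a comparison, the 3 largest changes in each comparison and 21 fixed genes. The genes, lists and tests were chosen with earlier results of these data known. Alternatives covered the pseudocount, the filter, 3 scalings, array weights, a replicate block, the libraries fitted and leaving out each library. The values of 1 gene of the wider pathway list are not reported here.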

Additional observations from a re-analysis of the deposited data

Results flagged for a closer look

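In groups of 5 libraries, 7 of 165 examined (4.24%, where chance gives about 5%) had a lowest or highest library whose gap to the next exceeded 0.71 of the group's range, the Dixon limit for 5 values. For single genes these were Pdhx in AngII plus OA replicate 3 (26.8 FPKM, next highest 19.5) and Pdpr in vehicle replicate 4 (4.90 FPKM, next highest 1.58). For ratios inside a library they were Pdp1 to Pdp2 in AngII replicate 4 (3.86, next 2.39), Pdk2 to Pdp2 in vehicle replicate 2 (35.8, next 22.4) and Idh2 to Idh3a in AngII replicate 4 (7.26, next 6.11). The ratio of Slc25a12 to Slc25a13 was high in AngII replicate 3 (0.984, next 0.789), and that of Got1 to Got2 was low in vehicle replicate 2 (1.03, next lowest 1.70). AngII replicate 2 was not among them for any gene or ratio of the list.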

How the results depend on the processing

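The count of listed genes called was 0 in all 3 comparisons under every alternative run. The smallest limma adjusted p of a listed gene over the alternatives was 0.0873 between AngII and vehicle (Idh3g, quantile normalization), 0.334 between AngII plus OA and AngII and 0.932 between AngII plus OA and vehicle. Of 641 recomputed changes per comparison, 51, 50 and 86 turned sign without a call, in that order. All genes called between AngII and vehicle, 197 in the reported fit, were 72 with no filter, 109 after quantile normalization, 114 with mitochondrially encoded genes left out of the FPKM total, 70 with only the 10 libraries compared, and 49 (without AngII replicate 5) to 427 (without AngII replicate 3) with 1 library left out. Between AngII plus OA and AngII, 0 to 1 gene was called with 1 library left out. With 1 library left out, the median of the listed genes was -0.26 to -0.05, 0.04 to 0.23 and -0.06 to 0.07 in the 3 comparisons. The ratio of Me2 to Me3 between AngII and vehicle differed by 0.41 to 0.53 in those fits. Replicate numbers did not clearly pair the libraries. Deviations of same-numbered libraries correlated from -0.35 to 0.43 over all genes and from -0.66 to 0.83 over the listed genes. Over all genes 7 of 30 correlated best with their own number, each picked among the 5 libraries of another group. That is near what random picking gives, and it does not exclude pairing. With the replicate number as a block, 38 genes were called between AngII and vehicle, 0 of them listed, and the adjusted p of Ppargc1b was 0.0523. Raising the filter to a mean FPKM of 5 left 29 of the 34 genes. The lowest genes, such as Pdk3 on 39 to 132 reads per library, are the least precisely measured.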
